A study of Mus musculus with 36 samples.

Results

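The genes of the synaptic vesicle release machinery were followed through peak lists of 2 histone marks in mouse dorsal hippocampus. The group holds 53 genes out of 21883 protein-coding genes. They were chosen by the function of their products and not by a measured value, though with earlier results of these data known. All 53 were found in the gene table. They fall into 16 calcium sensors (synaptotagmins and Doc2 proteins), 10 genes of the SNARE proteins, complexins and SNARE disassembly, 10 active zone and priming genes, 11 vesicle proteins and small GTPases, 4 endocytosis genes and 2 vesicular glutamate transporters.

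Chromatin immunoprecipitation sequencing (ChIP-seq) was made in male mice for histone H3 acetylated at lysine 9, written H3K9ac, and at lysine 27, written H3K27ac. Their age was 8 weeks per the labels. The 4 groups per mark crossed genotype with treatment. Control mice received a control vector in the brain, and ACSS2 KD mice an adeno-associated virus, AAV2/9; U6.shACSS2.CMV.EGFP, in which the U6 promoter drives a short hairpin RNA against Acss2. Mice of either genotype were left untreated or were given ethanol (EtOH) into the abdomen at 2 g per kg. The virus went into the dorsal hippocampus of all knockdown mice, the share of infected cells was not given in the sources used here, and no peak list can check how far Acss2 was lowered. Each group had 3 replicates but 1 peak list, so no value below has a replicate error, no difference could be tested, and the depth behind a list is unknown.

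Transmitter leaves a nerve terminal when a synaptic vesicle fuses with the plasma membrane. Active zone scaffolds hold the vesicle near calcium channels, priming factors make it ready, and calcium binding to a synaptotagmin triggers fusion by the SNARE complex. Endocytosis proteins then retrieve the membrane. H3K9ac and H3K27ac both mark active promoters, and H3K27ac also marks active enhancers. The acetyl group comes from acetyl-CoA, which ACSS2 makes from acetate, an end product of ethanol oxidation.

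The measure throughout is covered bases, the number of base pairs (bp) inside peaks of a list, within 2 kb on either side of the gene ends or inside the gene body between those windows. In each set of 4 values the order is untreated control, ethanol-treated control, untreated knockdown and ethanol-treated knockdown. The H3K9ac lists held 38235, 31042, 38484 and 42120 peaks covering 22.6, 16.1, 21.7 and 24.1 Mb, and the H3K27ac lists 89935, 86110, 101690 and 119317 peaks covering 40.1, 38.1, 47.8 and 57.4 Mb. The ethanol-treated control list was therefore the shortest of each mark, and the ethanol-treated knockdown list the longest. In this tissue fewer cells of a type and less mark per cell cannot be told apart. The excitatory neuron markers had H3K9ac near 9, 7, 9 and 9 of 10 genes, and the markers of other tissues near 3 of 10 in every list.

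Nearly all of the 53 genes were marked. H3K9ac lay near the ends of 50, 48, 48 and 50 of them, against 60.8%, 57.5%, 60.0% and 61.2% of all protein-coding genes. H3K27ac lay near 51 of 53 in every list, against 63.9%, 64.1%, 65.4% and 66.8%. Unc13c, a priming factor known best from cerebellar granule cells, and Slc17a6, the vesicular glutamate transporter VGLUT2 of mostly subcortical neurons, had no peak of either mark near their ends in any list. The RefSeq start of Unc13c lies inside the table's gene limits, away from both ends, and is described with the gene bodies. No gene of the group had H3K9ac without H3K27ac near its ends.

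For H3K9ac, marked members had a lower median coverage than all marked genes in every list but the last. The median over members with H3K9ac was 1342.5, 909.5, 1196.0 and 1477.0 bp, and over all genes with H3K9ac 1352.5, 1096.0, 1327.0 and 1390.0 bp. For H3K27ac the members were higher in every list, with 1446.0, 1514.0, 1629.0 and 1779.0 bp against 1359.0, 1320.0, 1428.0 and 1533.0 bp. Ranked by H3K9ac among all protein-coding genes, unmarked ones included, the 53 had a median percentile of 68.1, 60.9, 64.6 and 69.5. For H3K27ac that percentile was 70.9, 73.0, 72.9 and 73.5. The H3K9ac rank was thus lowest in the ethanol-treated control list, and the H3K27ac rank was lowest in the untreated control list.

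**Figure D1:**
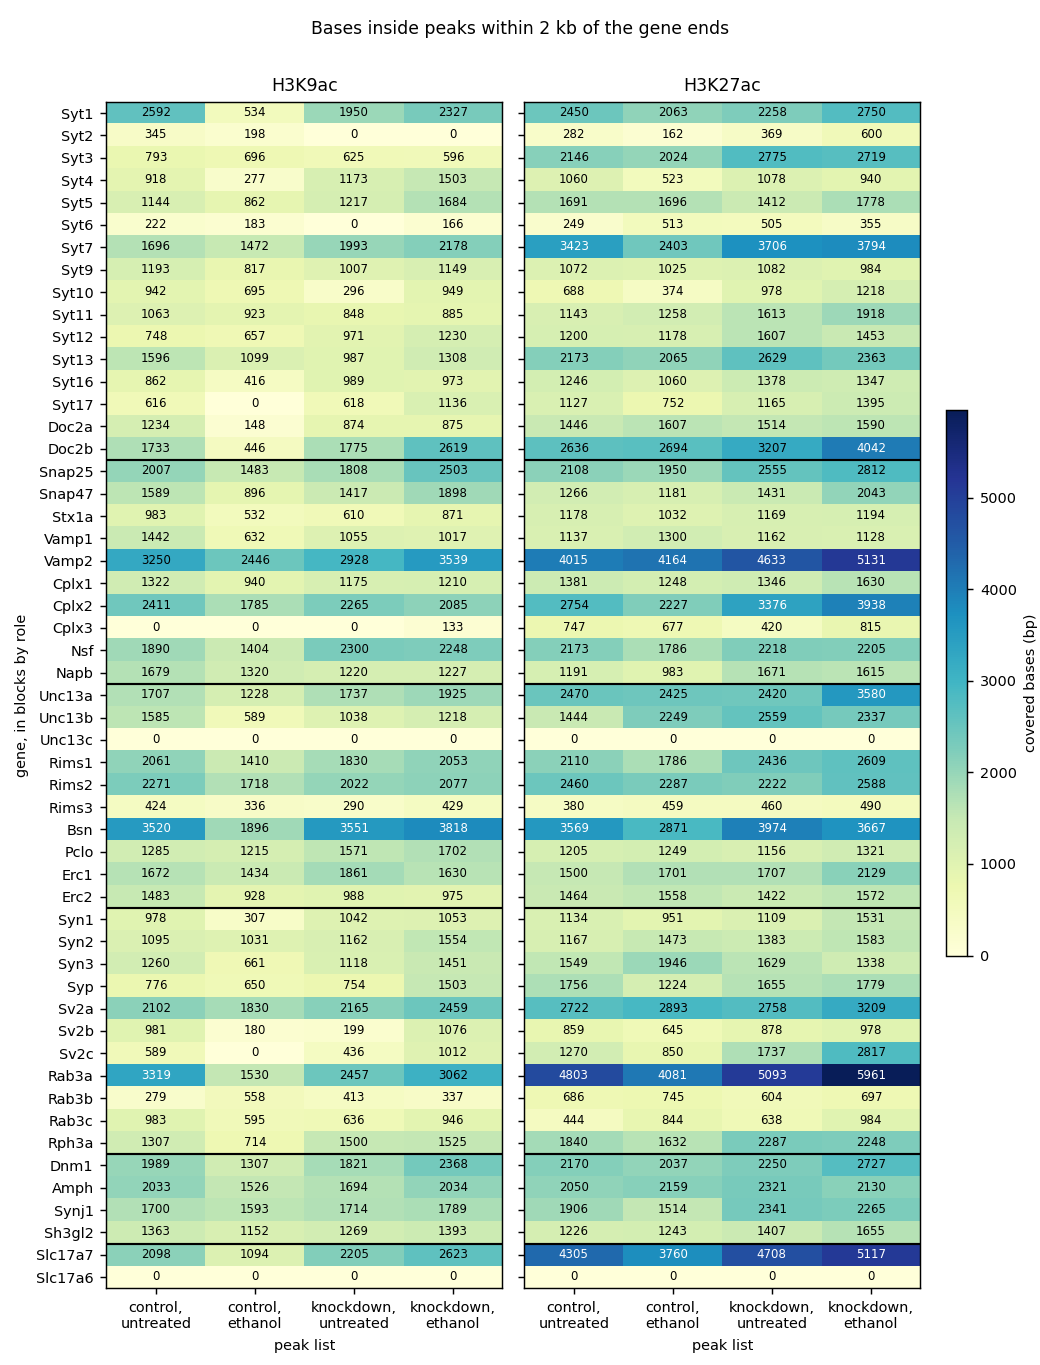
Covered bases (bp, colour and printed number) within 2 kb of the gene ends for each of the 53 genes (rows, in blocks by role) in the 4 lists of H3K9ac (left) and H3K27ac (right). The H3K9ac column of ethanol-treated control mice is paler than its neighbours in most rows, for instance 534 bp at Syt1 against 2592 bp in untreated control mice, while the H3K27ac column of the same mice differs less.

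RefSeq promoter windows, from 250 bp before to 50 bp after a start, were found for 41 of the 53 genes (54 windows, build GRCm38.p6). Those without an entry were Syt4, Syt5, Syt7, Syt12, Syt13, Syt17, Doc2a, Doc2b, Snap25, Vamp2, Rims2 and Syn3. The promoters are shown for 4 genes with large differences in covered bases, because the peaks of these genes sit beside or over these letters. Capitals mark an SP1 box (GGGCGG, or CCGCCC on the other strand) and, in Unc13a, both parts of the RE1 silencer element. Syt1, the fast calcium sensor of release, lies at chr10:108497650-109010980 on the minus strand, with the window of its outermost start at chr10:109010926-109011225. Bsn, the active zone scaffold Bassoon, lies at chr9:108096022-108190419 on the minus strand, with its window at chr9:108190334-108190633. Slc17a7, the main vesicular glutamate transporter of cortex and hippocampus, lies at chr7:45163921-45176139 on the plus strand, with its window at chr7:45163671-45163970. Unc13a, the main vesicle priming factor Munc13-1, lies at chr8:71624125-71671774 on the minus strand, with its window at chr8:71671708-71672007.
Syt1: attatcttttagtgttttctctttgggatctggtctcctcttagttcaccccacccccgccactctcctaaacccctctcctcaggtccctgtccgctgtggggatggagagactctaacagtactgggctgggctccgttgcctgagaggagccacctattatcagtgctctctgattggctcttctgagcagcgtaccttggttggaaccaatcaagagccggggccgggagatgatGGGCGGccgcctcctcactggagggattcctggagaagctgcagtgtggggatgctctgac
Bsn: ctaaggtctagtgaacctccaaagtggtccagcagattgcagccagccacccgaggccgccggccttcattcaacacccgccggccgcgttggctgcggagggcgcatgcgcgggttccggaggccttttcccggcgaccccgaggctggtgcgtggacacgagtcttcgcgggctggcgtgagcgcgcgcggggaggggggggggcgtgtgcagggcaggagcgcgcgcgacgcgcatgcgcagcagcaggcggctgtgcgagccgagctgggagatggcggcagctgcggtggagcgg
Slc17a7: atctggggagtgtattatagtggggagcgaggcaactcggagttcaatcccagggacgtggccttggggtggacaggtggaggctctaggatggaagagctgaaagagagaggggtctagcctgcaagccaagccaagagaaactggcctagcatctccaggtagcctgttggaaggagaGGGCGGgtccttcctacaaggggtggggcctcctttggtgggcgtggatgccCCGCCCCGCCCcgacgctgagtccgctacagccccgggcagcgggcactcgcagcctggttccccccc
Unc13a: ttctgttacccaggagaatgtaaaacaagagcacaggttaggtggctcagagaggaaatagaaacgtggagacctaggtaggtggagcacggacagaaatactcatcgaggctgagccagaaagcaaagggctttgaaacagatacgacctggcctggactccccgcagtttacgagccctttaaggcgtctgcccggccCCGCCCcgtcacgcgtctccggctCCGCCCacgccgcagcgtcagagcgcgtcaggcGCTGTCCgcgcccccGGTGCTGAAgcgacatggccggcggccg

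Bsn had no capitals, since none of the searched motifs occurs in its window. H3K9ac peaks covered 300, 0, 187 and 300 of the 300 bp of the Bsn window, 89, 0, 90 and 69 bp at Syt1, 0, 20, 0 and 300 bp at Slc17a7, and 300, 151, 300 and 178 bp at Unc13a. The Syt1 and Bsn windows thus held H3K9ac in every list except that of ethanol-treated control mice. H3K27ac covered the whole window of Slc17a7 in all 4 lists, and 199, 197, 300 and 300 bp of that of Bsn.

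The promoters of the group were rich in CG. Their median GC content was 62.5% against 56.3% in all 21262 windows of the RefSeq table, and the median ratio of observed to expected CpG was 0.677 against 0.567. An SP1 box was found in 66.7% of the 54 windows and in 46.2% of all windows. The left part of RE1, TTCAGCACC or its reverse complement GGTGCTGAA, occurred in 3.7% of the windows against 0.414%, in Syn1 and Unc13a. The right part, GGACAGC or GCTGTCC, occurred in 11.1% against 6.88%, in Rph3a, Syt6 and Unc13a. The cAMP response element TGACGTCA, which is its own reverse complement, was in Syn1 and Sh3gl2 (3.7% against 2.23%). All motifs were searched on both strands. The EGR box GCGGGGGCG was in 7.41% against 3.87%, the AP-1 site TGACTCA in 5.56% against 4.66%, the E-box CAGATG in 9.26% against 14.6%, and the TATA box TATAAA in 5.56% against 12.6%. SP1 and EGR boxes can overlap in GC-rich sequence, windows of 1 gene can overlap, and these shares describe letters only.

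Around the starts of the 41 genes, H3K9ac was found mainly downstream. It covered the position 100 bp downstream in 87.8% of them in the untreated control list. At least 50% of the genes were covered from 100 to 900 bp in that list, from 100 to 600 bp with ethanol, and from 100 to 800 bp in the untreated knockdown. In the ethanol-treated knockdown the first such position was at -300 bp and the last at 800 bp, with a gap at the start, where the share was 39.0% at -100 bp and 41.5% at 0 bp. For H3K27ac the first and last positions were -300 and 800 bp in both control lists, -300 and 1000 bp in the untreated knockdown and -400 and 1000 bp in the ethanol-treated knockdown. The control lists had a gap here too, with 36.6% at -100 bp in untreated mice and 43.9% with ethanol. The number of 100 bp positions with this H3K9ac share was 9, 6, 8 and 10, the fewest in ethanol-treated control mice. These windows around the start held 51391, 34790, 47116 and 53793 bp of H3K9ac, and the other ends of the same genes only 6410, 3091, 5234 and 5388 bp.

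**Figure D2:**
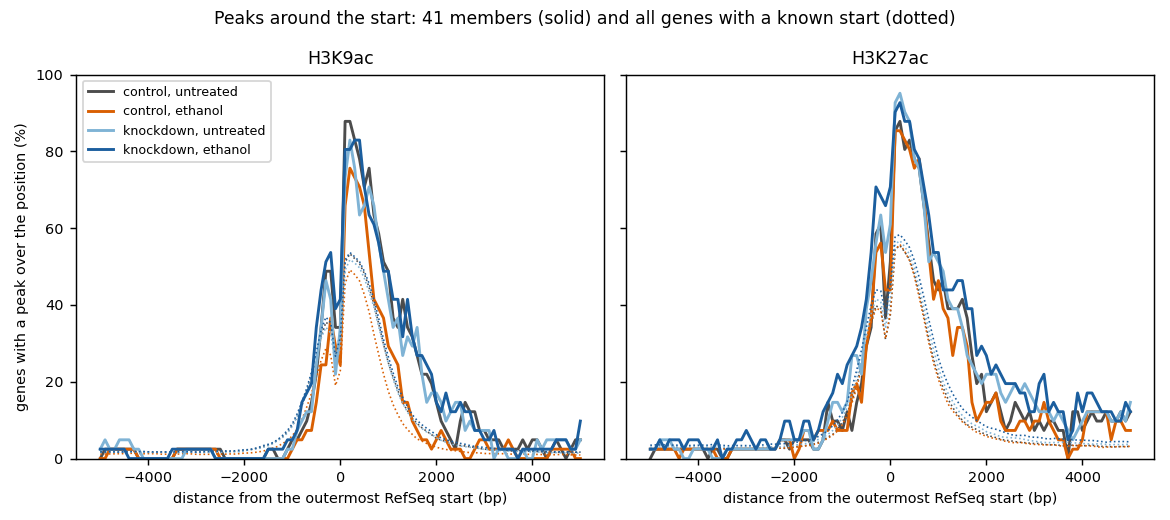
Share of the 41 genes of the group with a known start (solid lines) and of all genes with a known start (dotted lines) that have a peak over each position, against the distance from the outermost RefSeq start in bp, for the 4 lists of each mark. H3K9ac reached 87.8% of the group in untreated control mice and 75.6% in ethanol-treated control mice, and in the latter it was narrower downstream.

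In control mice, ethanol went with less H3K9ac near the ends of almost every gene of the group. Of 49 genes with at least 300 covered bp in either list, 48 had fewer covered bases with ethanol and 1, Rab3b, had more. Among all protein-coding genes tested in the same way 86.7% had fewer. The difference reached 1.5-fold, the size counted here as less covered, at 22 of the 49 genes (44.9%), against a background of 28.2% of 12704 genes. At least 1.5-fold more was found at Rab3b alone (2.04%), against 0.952%. The summed bases of the group were 36.6% lower with ethanol and those of all genes 22.4% lower.

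This share depends on genes with a close neighbour. In 17 of the 53 genes the end of another protein-coding gene lies within 2 kb, so the window can hold that gene's peaks too. Of these, 11 of 16 tested were less covered (68.8%), against 25% of all genes with such a neighbour. Of the 33 tested without one, 11 were less covered (33.3%), against 30.7% of such genes, which is near the background. In each coverage class but the lowest, the median change was larger than that of all genes with like coverage. For genes with 300 to under 1000 bp, averaged over the 4 lists, it was -417 bp over 16 members and -221 bp over all genes, at 1000 to under 2000 bp it was -497 bp over 25 members against -295 bp, and at 2000 bp and over -804 bp over 7 members against -443 bp. Under 300 bp the 1 member changed by -147 bp, and all genes by a median of -320 bp. No error can be put on these medians, and they were not split by close neighbours.

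Among the calcium sensors, 7 of 15 tested genes were less covered with ethanol in control mice (46.7%, beside 28.2% of all genes). In bases, Syt1 had the largest difference of all 53 genes in this comparison, with 2592, 534, 1950 and 2327 bp of H3K9ac in the 4 lists. Its 4 peaks near the ends in untreated control mice, the widest 1442 bp, were down to 1 peak of 534 bp with ethanol, which is 4.85-fold fewer bases. The ethanol-treated control list is the low one, and both knockdown lists are nearer to the untreated control. Doc2b, a high-affinity calcium sensor at chr11:75768270-75796060, had 1733, 446, 1775 and 2619 bp, 3.89-fold fewer with ethanol. Its relative Doc2a had 1234, 148, 874 and 875 bp, the lowest again in ethanol-treated control mice, although its window also holds the end of Ino80e.

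Syt4, a synaptotagmin whose first calcium-binding domain lacks a needed residue, had 918, 277, 1173 and 1503 bp of H3K9ac. Syt17, an atypical member, had 616, 0, 618 and 1136 bp, so no peak at all was listed near it in ethanol-treated control mice. Syt2, a fast sensor used mainly in hindbrain synapses, and Syt16 were also less covered. Syt7, the sensor of slow and asynchronous release, had 1696, 1472, 1993 and 2178 bp, which is under 1.5-fold in all 4 comparisons. Syt3, Syt5, Syt6, Syt9, Syt10, Syt11, Syt12 and Syt13 were below 1.5-fold or below 300 bp with ethanol in control mice.

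**Figure D3:**
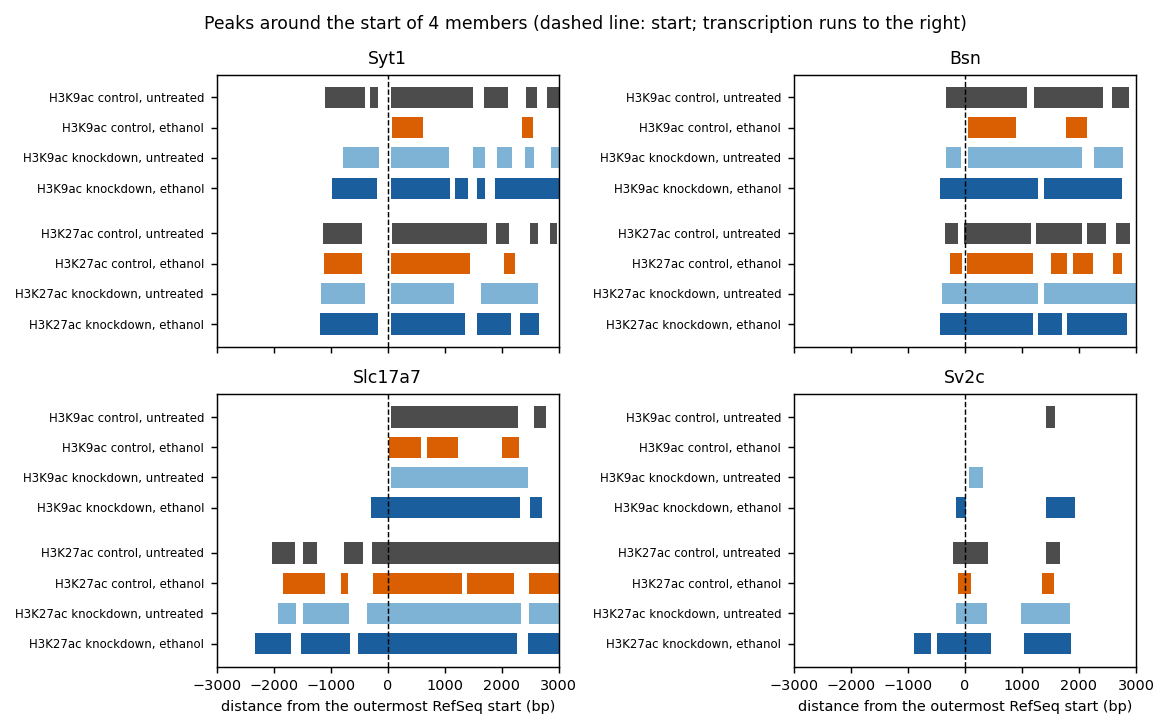
Peaks of each list (bars) around the outermost RefSeq start of Syt1, Bsn, Slc17a7 and Sv2c, with distance from the start in bp and transcription to the right. In the second row of each panel, H3K9ac of ethanol-treated control mice, the bars are the shortest or missing, as at Syt1 (534 bp within 2 kb) and Sv2c (0 bp), while H3K27ac of the same mice (sixth row) is present at all 4 genes.

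In the SNARE group 3 of 9 tested genes were less covered (33.3%, near the 28.2% of all genes). They were Snap47, a relative of SNAP-25, Stx1a, a SNARE of the plasma membrane, and Vamp1, a vesicle SNARE. The windows of these genes also hold an end of Jmjd4, Bud23 and Tapbpl, in that order. Vamp2, the main vesicle SNARE of the forebrain at chr11:69088528-69092381, had the most H3K9ac among the SNARE genes, with 3250, 2446, 2928 and 3539 bp. Cplx2, a complexin that holds the SNARE complex in check until calcium enters, had 2411, 1785, 2265 and 2085 bp. Snap25, Cplx1, Nsf, the ATPase that takes spent SNARE complexes apart, and its adaptor Napb had fewer bases with ethanol without reaching 1.5-fold. Cplx3 had no H3K9ac except 133 bp in the ethanol-treated knockdown.

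At the active zone 3 of 9 tested genes were less covered (33.3%, near the 28.2% of all genes), Unc13b, Bsn and Erc2. Bsn had 3520, 1896, 3551 and 3818 bp, with 2209, 1070, 2211 and 2344 bp around its start and 1348, 863, 1377 and 1511 bp at its other end, where Apeh lies. The low list was the same at both ends. Rims2, a scaffold that ties vesicles to calcium channels, had 2271, 1718, 2022 and 2077 bp, and Unc13a had 1707, 1228, 1737 and 1925 bp. Rims1, Rims3, the Bassoon relative Pclo and Erc1 stayed under 1.5-fold as well.

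The vesicle proteins had the largest share among the roles with more than 2 genes, 7 of 11 (63.6%, beside 28.2% of all genes). These were Syn1, Syn3, Sv2b, Sv2c, Rab3a, Rab3c and the Rab3 effector Rph3a. Rab3a, the main small GTPase of synaptic vesicles at chr8:70754703-70758608, had 3319, 1530, 2457 and 3062 bp. Its far end lies within 2 kb of the end of Mpv17l2, and around the start alone it had 1675, 1239, 1445 and 2206 bp, a difference with ethanol in control mice of less than 1.5-fold. Sv2b, a vesicle glycoprotein at chr7:75114894-75309262, had 981, 180, 199 and 1076 bp, low in 2 lists that share neither genotype nor treatment. Sv2c at chr13:95959443-96132577 had 589, 0, 436 and 1012 bp. Their more widely expressed relative Sv2a, the target of the drug levetiracetam, had 2102, 1830, 2165 and 2459 bp, and Syn2 and Syp (synaptophysin) also stayed under 1.5-fold. Rab3b, the exception, had 279, 558, 413 and 337 bp.

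Of the endocytosis genes 1 of 4 was less covered (25%, near the 28.2% of all genes). It was Dnm1, the GTPase dynamin that cuts vesicles from the membrane, with 1989, 1307, 1821 and 2368 bp. Amph, amphiphysin, which recruits dynamin, had 2033, 1526, 1694 and 2034 bp. Synj1, a lipid phosphatase that helps remove the clathrin coat, and Sh3gl2 (endophilin) were under 1.5-fold. Slc17a7 was less covered, with 2098, 1094, 2205 and 2623 bp and, around the start alone, away from its neighbour Gfy, 1942, 1094, 1935 and 2288 bp. Its wide peak of 2225 bp in untreated control mice gave way to peaks of 554 and 540 bp in the ethanol list.

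In the knockdown, ethanol went with more H3K9ac at most of the group. Of 48 tested genes 40 had more bases and 8 fewer, where 62.6% of all genes had more. At least 1.5-fold more was found at 5 (10.4%), namely Syt10, Syt17, Syp, Sv2b and Sv2c, against 10.2% of all genes, and so at the background. No gene was 1.5-fold less covered, against 3.5%. The summed bases were 19.4% higher in the group and 6.72% higher in all genes.

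Untreated knockdown mice had somewhat less H3K9ac at the group than untreated control mice. Of 49 tested genes 30 had fewer bases and 19 more, where 56.4% of all genes had fewer. At least 1.5-fold less was found at 8 (16.3%, against 8.79%): Syt2, Syt10, Syt13, Stx1a, Unc13b, Erc2, Sv2b and Rab3c. None was more covered, against 3.85%. The largest of these was Sv2b with 981 and 199 bp. At Unc13b the difference was not seen around the RefSeq start alone, with 629 and 620 bp. Syt2 and Syt6 had no H3K9ac near their ends in the untreated knockdown. With neighbours' windows left out, 5 of 33 were less covered (15.2%), against 10.2% of such genes.

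Between ethanol-treated mice the knockdown list had the more H3K9ac. Each list enters 2 of the 4 comparisons of its mark, and this one shares the short ethanol-treated control list with the first, so the 2 are not separate evidence. At least 1.5-fold more was found at 27 of 48 tested genes (56.3%), against 31.2% of all genes, and 1.5-fold less at Rab3b alone (2.08%), against 0.951%. By role these were 8 of 14 calcium sensors, 5 of 9 SNARE genes, 3 of 9 active zone genes, 9 of 11 vesicle proteins, 1 of 4 endocytosis genes and Slc17a7. Doc2b had the largest difference, 446 against 2619 bp, or 5.87-fold. Genes without a close neighbour gave 15 of 33 (45.5%), against 34.9% of such genes, and genes with one 12 of 15 (80%), against 26.5%.

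**Figure D4:**
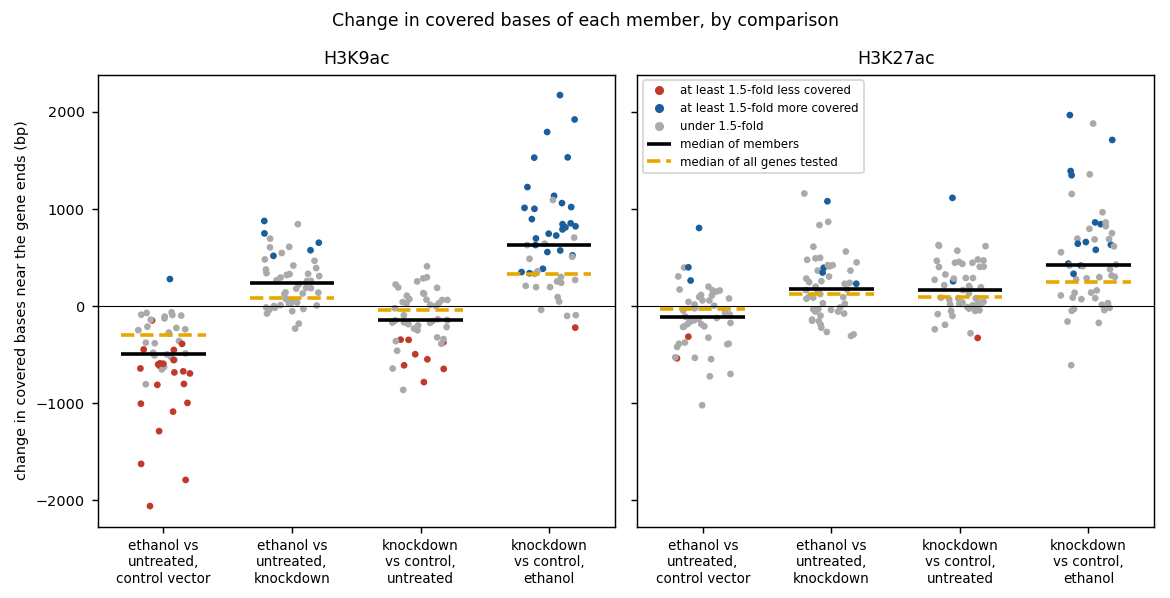
Change in covered bases (bp) near the ends of each tested gene of the group (points, coloured by whether the difference reached 1.5-fold) for the 4 comparisons of each mark, with the median of the group (solid line) and of all genes tested (dashed line). For H3K9ac the medians of the group were -497, 241, -147 and 629 bp and those of all genes -296, 81.5, -40 and 332 bp, so the group lay farther from 0 in each.

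H3K27ac near the same ends differed less with ethanol in control mice. Of 50 tested genes 31 had fewer and 19 more bases, where 54.6% of all genes had fewer. Covered bases were 1.5-fold less at Syt4 and Syt10 (4.0%, against 5.08%) and 1.5-fold more at Syt6, Unc13b and Rab3c (6.0%, against 5.33%), all near the background. Syt1 had 2450, 2063, 2258 and 2750 bp of H3K27ac, without the drop to 1 short peak seen for H3K9ac. Unc13b, the priming factor Munc13-2, had 1444, 2249, 2559 and 2337 bp, lowest in the untreated control list. Its windows also hold ends of Atp8b5 and Fam214b, and around its RefSeq start alone it had 605, 631, 648 and 659 bp, without a 1.5-fold difference. The ratio of H3K9ac to H3K27ac bases per gene, among members with both marks, had a median of 0.892, 0.596, 0.695 and 0.766, against 0.949, 0.757, 0.852 and 0.834 over all such genes.

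The knockdown lists held more H3K27ac at the group. With ethanol in the knockdown 4 of 51 tested genes were 1.5-fold more covered, Syt2, Cplx3, Sv2c and Rab3c (7.84%, against 10.3%), and none less (against 1.81%). Between untreated mice Syt6 and Unc13b were more covered in the knockdown (3.92%, against 9.77%) and Cplx3 less (1.96%, against 2.22%). These shares are at or below the background. Between ethanol-treated mice 13 of 51 were more covered (25.5%, against 19.1%) and none less (against 1.2%). In the same comparison 6 of 9 tested excitatory neuron markers and 6 of 9 astrocyte markers were more covered with H3K27ac. Of 9 oligodendrocyte markers 1 was more and 1 less covered, as were 1 and 1 of 3 inhibitory neuron and of 3 microglia markers. Endothelial and mural markers had 1 of 5 more covered, and markers of other tissues 1 of 3. The part of these cell types in the result was not tested. The 13 were Syt2, Syt4, Syt7, Syt10, Syt11, Syt17, Doc2b, Snap47, Cplx2, Napb, Syn1, Sv2b and Sv2c, and no active zone, endocytosis or glutamate transporter gene reached 1.5-fold. Around the RefSeq start alone, Syt11 had 2404 bp in ethanol-treated control and 2262 bp in ethanol-treated knockdown mice. Snap47 had 1181 and 1626 bp there, so neither gene reached 1.5-fold more around its start.

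Sv2c had the largest H3K27ac difference, with 1270, 850, 1737 and 2817 bp, or 3.31-fold between ethanol-treated control and knockdown mice. Rab3a had 4803, 4081, 5093 and 5961 bp, the most of the group. Slc17a7 had 4305, 3760, 4708 and 5117 bp, Vamp2 4015, 4164, 4633 and 5131 bp, and Bsn 3569, 2871, 3974 and 3667 bp. In each of Rab3a, Slc17a7, Syt7 and Cplx2 the ethanol-treated control list was the lowest and the ethanol-treated knockdown list the highest. These are also the shortest and the longest H3K27ac list, and how many of all genes had this order was not counted. Syt7 had 3423, 2403, 3706 and 3794 bp and Cplx2 2754, 2227, 3376 and 3938 bp. Doc2b had 2636, 2694, 3207 and 4042 bp, and Unc13a 2470, 2425, 2420 and 3580 bp, high in the last list only. Sv2a, Dnm1 and Amph had 2722, 2893, 2758 and 3209 bp, 2170, 2037, 2250 and 2727 bp, and 2050, 2159, 2321 and 2130 bp, and none of these reached 1.5-fold between lists.

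Inside the gene bodies the differences in H3K27ac were wider. Exons, introns, enhancers and inner starts were not told apart there. A body outside the end windows remained in 51 genes, of which 37, 36, 40 and 44 had an H3K27ac peak, against 39.7%, 39.3%, 42.9% and 47.0% of all genes. An H3K9ac peak was found in 28, 24, 29 and 31 of the 51, against 29.4%, 21.8%, 28.8% and 31.4%. Peaks covered 1.68%, 1.32%, 2.25% and 3.15% of these bodies for H3K27ac, against 1.84%, 1.72%, 2.31% and 2.91% in all genes. These pooled values give long genes the most weight, and on them the group was below all genes in the first 3 lists and above in the last. The median body was 0.694%, 0.426%, 1.15% and 1.84% covered in the group and 0% in all genes in every list. Neither this median nor the counts of bodies with a peak were matched on body length. A longer body has more room for a peak, so they do not show that these bodies are more densely marked.

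Of 34 bodies tested with ethanol in control mice 12 were 1.5-fold less covered (35.3%, against 20%) and 3 more (8.82%, against 14.9%). The 12 included Syt1, Erc2, Unc13b, Nsf, Syn2 and Sv2b, and the 3 were Syt6, Stx1a and Syn1. With ethanol in the knockdown 19 of 43 were more covered (44.2%, against 34.5%) and Syt2 and Cplx3 less (4.65%, against 6.21%). Between untreated mice 13 of 36 were more covered in the knockdown (36.1%, against 33.4%) and none less (against 7.17%). Between ethanol-treated mice 36 of 43 were more covered (83.7%, against 60.4%) and Syt6 less (2.33%, against 3.38%). The summed bases of the group were 138% higher in that last comparison, and those of all genes 69.3% higher.

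In 4 genes the most body bases were covered. Bsn had 15292, 10969, 21749 and 28366 bp of body H3K27ac, Syt7 13229, 9849, 18143 and 25242 bp, Dnm1 14266, 13075, 16972 and 21356 bp, and Cplx2 12164, 11081, 17729 and 22047 bp. All 4 were lowest in ethanol-treated control mice and highest in the ethanol-treated knockdown. The bodies of all genes together had the same lowest and highest list, with 1.84%, 1.72%, 2.31% and 2.91% covered. The widest H3K27ac peak of the group inside a body, 4505 bp, was at Dnm1 in that last list. For H3K9ac the most covered bodies were Dnm1 with 4351, 1747, 4247 and 4096 bp, Syt11, which does not bind calcium, with 2422, 1946, 3129 and 2728 bp, Cplx2 with 2854, 1465, 2348 and 3543 bp, and Syt7 with 2226, 1088, 3057 and 3036 bp. These bodies too were lowest in ethanol-treated control mice. Of all gene bodies tested, 89.3% had fewer H3K9ac bases with ethanol in control mice. The RefSeq start of Syt11, at chr3:88772599, lies inside its body as counted here. Within 2 kb of that start H3K9ac covered 2245, 1946, 2327 and 1956 bp, so much of this body value lies around a start. Unc13c, unmarked at the ends of its table entry, had 506 and 593 bp of body H3K27ac in the knockdown lists and none in the control lists. All of these lay within 2 kb of its RefSeq start at chr9:73969037, with 107 and 146 bp inside the promoter window, and 158 bp of H3K9ac lay there in ethanol-treated control mice. By contrast, Slc17a6 had no peak of either mark in its body.

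**Figure D5:**
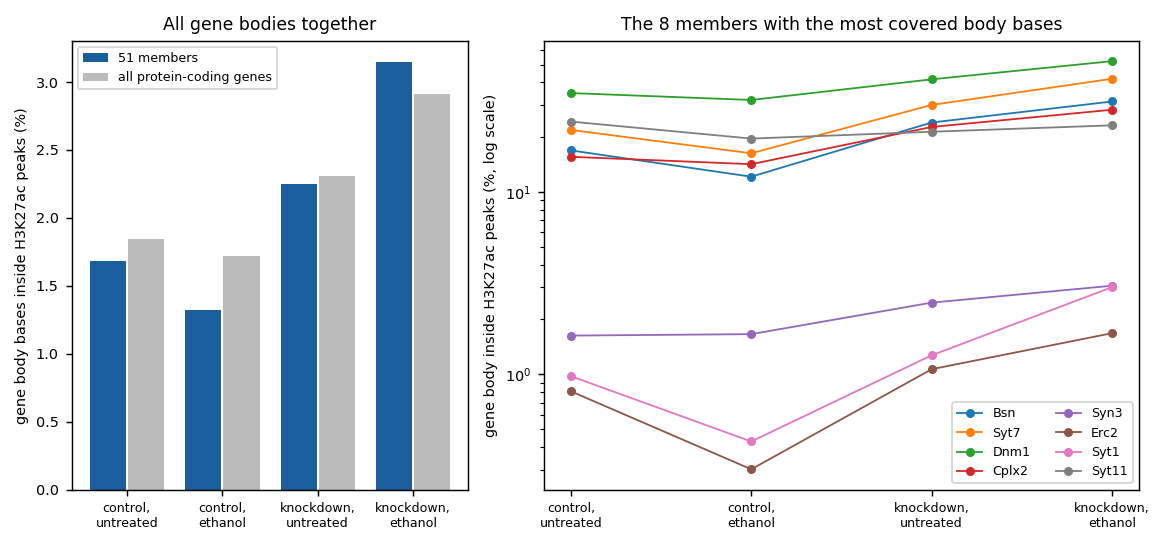
Left, percent of gene body bases inside H3K27ac peaks in each list, over the 51 genes of the group with a body and over all protein-coding genes (bars). Right, the same percent for the 8 genes with the most covered body bases (points joined by lines, log scale); the bodies of the group together had 1.32% in ethanol-treated control mice, the lowest list, and 3.15% in the ethanol-treated knockdown, the highest.

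Other genes of the vesicle cycle also had less H3K9ac in ethanol-treated control mice. From a list of 60 such genes, 59 of them in the gene table, 17 of 49 tested were 1.5-fold less covered with ethanol in control mice (34.7%, beside the 28.2% of all genes) and 1, Cadps2, was more covered. The 17 included 4 subunits of the clathrin adaptor AP-2 (Ap2a1, Ap2b1, Ap2m1 and Ap2s1). With ethanol in the knockdown 4 were more covered (8.16%, beside 10.2%). Between untreated mice 2 were less covered (4.08%, beside 8.79%) and 2 more (4.08%, beside 3.85%), with a median change of 39 bp where the release machinery had -147 bp. Between ethanol-treated mice 21 of 49 were more covered (42.9%, beside 31.2%).

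Marker genes of several cell types differed in the same lists. The summed H3K9ac near the ends of 10 excitatory neuron markers was 16153, 10345, 17400 and 21626 bp, with 5 of 9 tested less covered with ethanol in control mice, where 28.2% of all genes were. The 10 astrocyte markers summed to 11043, 6665, 10416 and 11636 bp (5 of 8 less covered), the 10 oligodendrocyte markers to 10454, 7009, 6003 and 8962 bp (4 of 8) and the 10 inhibitory neuron markers to 3238, 1126, 3012 and 3335 bp (2 of 2). Microglia markers summed to 1370, 914, 585 and 1089 bp (2 of 3), endothelial and mural markers to 2693, 1998, 1889 and 2912 bp (1 of 3), and markers of other tissues to 3320, 2131, 2813 and 3642 bp (2 of 3). The ethanol-treated control list was thus the lowest for neuronal and astrocyte markers and for other tissues, and the untreated knockdown list for the other 3. The part of cell makeup or of list length in the differences of the release machinery was not tested.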

How the data were processed

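H3K9ac and H3K27ac ChIP-seq peak lists of 8 groups were analysed, 1 list for the 3 replicates of each group. The 12 input samples were not analysed here. Per the labels, ChIP was called against input and peaks pass a rate of false discoveries of 0.001. Tools in the submitters' processing notes are STAR 2.5.2a, MACS2, bedtools and bcl2fastq, with genome GRCm38 (mm10). The way replicates were combined was not given in the sources used here. The score in the deposited lists was read as −log10 of a q-value, since none was below 3, and served only to rank or filter peaks. The deposited lists hold no read counts.

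Peaks on assembled chromosomes were merged and their bases counted within 2 kb of both gene ends and inside the remaining body, with gene limits from the RefSeq table of GRCm38.p6 (Python 3.11.15, pandas 2.3.3, numpy 2.4.6), after checking the code on simulated data. A gene was tested with at least 300 covered bp in either list and called at 1.5-fold. Strand and starts came from the RefSeq promoter table, using the outermost start.

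The members, roles, markers and lists were chosen with earlier results of these data known. Named genes were the 8 largest differences per mark, the 2 most covered of each role, opposite calls with ethanol, the 4 most covered bodies per mark and genes without peaks, and others are given in counts. Doc2a, Rab3b and the genes named as members of a count were added after their values were seen. In all, 7 alternatives were planned and 2 added after the data were seen. No p-value is given, because each group has 1 list.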

Additional observations from a re-analysis of the deposited data

Results flagged for a closer look

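Ethanol went with fewer H3K9ac bases in control mice and more in the knockdown, each by at least 1.5-fold, at 3 genes. Of all genes, 28.2% were less covered in the first comparison and 10.2% more covered in the second. How many of all genes did both was not counted, so 3 cannot be called many or few. At Syt17 the change was -616 bp in control mice and 518 bp in the knockdown. At Sv2b it was -801 bp and 877 bp, and at Sv2c -589 bp and 576 bp. With only peaks at or above the median score the change in control mice was 0 bp at all 3 genes. At Sv2c the knockdown change was -57 bp with 1 kb around the ends, and around its start alone H3K9ac in control mice was 168 and 0 bp, below the 300 bp needed for a call. The difference between the genotypes was not tested, since each value comes from 1 list per group. No gene of the group did so for H3K27ac. Sv2b was as low in the untreated knockdown (199 bp) as in ethanol-treated control mice (180 bp).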

How the results depend on the processing

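Shares are of the tested genes of the group, with the share of all genes in brackets. With 1 kb around the gene ends, H3K27ac was more covered with ethanol in control mice at 0% (4.95%) and less covered in the untreated knockdown at 0% (2.35%), and Sv2c had 57 fewer rather than more H3K9ac bases with ethanol in the knockdown (-57 bp). With 5 kb, H3K27ac was less covered in the untreated knockdown at 0% (2.23%), and more covered in the ethanol-treated knockdown than in ethanol-treated control mice at 39.2% (23.9%). Over the whole gene with 2 kb, H3K9ac was less covered with ethanol in control mice at 61.2% (33.9%). For H3K27ac there, ethanol in control mice gave 15.7% less (6.82%) and 1.96% more covered (5.87%), ethanol in the knockdown 19.2% more (13.9%), the untreated knockdown 0% less (2.4%) and 13.5% more (13.1%), and the ethanol-treated knockdown 61.5% more (31.5%). With peaks at or above the median score, the untreated knockdown had 9.09% more covered for H3K9ac (7.18%) and 14% for H3K27ac (11.2%). With lists of equal length, H3K27ac was more covered with ethanol in the knockdown at 1.96% (9.3%) and less in the untreated knockdown at 0% (2.97%), and Sv2b had a change of -76 bp between ethanol-treated mice for H3K27ac. Under that setting H3K9ac was less covered with ethanol in control mice at 42.9% (24.2%) and more covered in the ethanol-treated knockdown at 50% (25.4%). At 2-fold, H3K9ac was less covered at 24.5% with ethanol in control mice (11.8%), at 6.12% in the untreated knockdown (4.1%) and at 0% between ethanol-treated mice (0.409%), where 35.4% were more covered (13.4%). H3K27ac at 2-fold was more covered with ethanol at 2% in control mice (2.51%) and 0% in the knockdown (4.38%), less in the untreated knockdown at 0% (0.847%), and more in the ethanol-treated knockdown at 5.88% (8.09%). Around RefSeq starts, and without genes that share a window (both added after the data were seen), H3K27ac was less covered in the untreated knockdown at 0% (2.09% and 2.75%). Of the changes called at single named genes, 52 fell below the call under some alternative and 230 kept it, counted per gene and setting, with 14 of the losses at 2-fold, 9 each at 1 kb and at the median score and 7 around RefSeq starts. Of the 230, 37 were kept without the 300 bp minimum, a setting that cannot remove a call. The other 143 shares and counts stayed within the 95% Wilson interval of the reported share or, for counts of genes with a peak, within 1.5 times. That interval treats genes as independent and is no replicate error. It is wide for so few genes, so staying inside it says little about stability. The cause of the movements under these settings was not tested. No paired analysis was possible because each list pools the replicates of its group, which also precludes leaving out a replicate. The sequencing depth of the lists is unknown.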

Other observations

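Single peaks near the ends of the 53 genes persisted unequally between the lists. The same counts were not made over all genes, so they cannot be called particular to the group. The lists also differ in length, and the part of length in these counts was not tested. H3K9ac lists held 119, 95, 118 and 118 such peaks, in the order untreated control, ethanol-treated control, untreated knockdown and ethanol-treated knockdown, with median widths of 503.0, 372.0, 409.5 and 511.0 bp. Of the peaks of ethanol-treated control mice 82 of 95 (86.3%) overlapped a peak in each of the other lists and 0 occurred in that list alone, against 10, 6 and 12 peaks alone in the others. H3K27ac lists held 146, 144, 143 and 163 end peaks, of which 4, 7, 11 and 26 were in 1 list alone. Inside the bodies the ethanol-treated knockdown had 562 H3K27ac peaks, 201 of them (35.8%) in no other list, against 34 of 279 (12.2%) in ethanol-treated control mice. The widest H3K27ac peaks near a gene end were at Dnm1 in both knockdown lists, at 5801 and 5862 bp.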
